A study of Tetranychus urticae with 5 samples.

Results

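The genes described here are the members of the ABCE and ABCF subfamilies of ATP-binding cassette (ABC) proteins in the two-spotted spider mite Tetranychus urticae: TuABCE-01, TuABCF-01, TuABCF-02 and TuABCF-03. They were found by their symbols in the names of the array's probes, leaving out symbols that start with p, and are 4 of the 19601 genes named on the array. Each is represented by 3 probes. The mites came from SR-TK, a strain kept on kidney bean under selection with 1000 mg/L of the acaricide spirodiclofen, from SR-VP, kept on the same host under 5000 mg/L, and from LS-VL, the strain both were compared with, for which no selection is stated. Spirodiclofen inhibits acetyl-CoA carboxylase, an enzyme of fatty acid synthesis. RNA was taken from pools of about 200 deutonymph females, the last immature stage before the adult, so nothing is known here of single mites or single tissues. All 3 strains were reared at 26 °C on bean leaves, from eggs laid within about 6 hours by 250 females per leaf. On each of 5 two-colour arrays the resistant strain was labelled with Cy5 and LS-VL with Cy3, with 2 arrays for SR-TK and 3 for SR-VP, called biological replicates in the labels. The labels give 3 leaves for each strain, and do not say how LS-VL mites were divided over 5 arrays, so some arrays may share LS-VL material and p-values leave out at least part of its spread. No dyes were swapped, so a dye effect particular to a gene cannot be told apart from a difference between strain and LS-VL.

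Most ABC proteins are membrane transporters, but those of the E and F subfamilies carry a pair of ATP-binding domains and no membrane domain, and work at the ribosome. ABCE1 of human, known as Rli1 in yeast and pixie in Drosophila, holds iron-sulphur clusters and splits the ribosome into its subunits after termination, so that they can be used again. Among the ABCF proteins, human ABCF1 binds the initiation factor eIF2, yeast Arb1 takes part in the assembly of ribosomal subunits, and yeast Gcn20 acts with Gcn1 to activate the kinase Gcn2 when amino acids are short. Which of the mite's ABCF genes corresponds to which of these is not stated in the sources used here, and the numbers in the mite symbols need not follow the human ones. The genes lie on scaffolds 30 (TuABCE-01, under the name Tetur30g01590), 20 (TuABCF-01, Tetur20g03040), 29 (TuABCF-02, Tetur29g00800) and 32 (TuABCF-03, Tetur32g00510) by the numbering in the array's names. Their coordinates, exons and sequences were not analysed here.

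All 4 genes were detected in every sample. Each of the 12 probes was well above background in both channels on all 5 arrays, no spot of these probes was marked as an outlier, and none on the arrays was saturated. The raw brightness of a spot was between 2.49 and 317 times its local background. SR-VP replicate 3 stood apart as a whole array, with 54.3% of spots well above background in Cy5 against 72.9% to 75.9% on the others, and a lower quartile of raw Cy5 brightness of 168.5 against 78.5 to 82. No symbol on the array names a ribosomal protein, another translation factor, GCN1 or GCN2, nor a yolk, chorion, silk or cuticle gene, so neither the rest of the translation machinery nor the makeup of stages and tissues could be described by symbol.

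The level of each gene was taken as its normalized log2 signal, the mean of its probes in one channel, and placed among all 19601 genes of the same array and channel. Such a percentile ranks brightness, which also depends on how well a probe binds, and does not compare amounts of transcript between genes. TuABCF-01 lay highest in brightness. Its percentiles were 97.6 and 97.4 in SR-TK, 97.4, 96.9 and 96.8 in SR-VP, and between 97.0 and 97.4 on the 5 arrays in LS-VL, which corresponds to ranks between 461 and 637. TuABCF-02 followed at 89.8 and 88.1 in SR-TK, 91.0, 90.6 and 90.4 in SR-VP, and 88.4 to 91.4 in LS-VL. With all probes averaged, both genes kept their place on every array and in both dyes, TuABCF-01 always above TuABCF-02 and both above TuABCE-01 and TuABCF-03. The place of TuABCF-02 above TuABCE-01 did not hold with spots near the edge of the grid left out. TuABCE-01 then averaged 90.8 in Cy5 and 90.4 in Cy3, and TuABCF-02 averaged 89.6 in both.

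TuABCE-01 and TuABCF-03 were less bright, and their order changed from array to array. TuABCE-01 lay at percentiles of 79.1 and 85.0 in SR-TK, 70.4, 84.2 and 77.6 in SR-VP, and 69.6 to 85.0 in LS-VL. TuABCF-03 lay at 75.7 and 76.8 in SR-TK, 77.3, 80.0 and 80.8 in SR-VP, and 76.4 to 85.2 in LS-VL. For comparison, the 77 other ABC genes with a symbol (subfamilies ABCA, ABCB, ABCC, ABCD and ABCG) had a median percentile of 70.8 for the mean of both channels and all arrays, and ranged from 7.77 to 97.6. By subfamily the median was 79.7 for ABCB, 78.0 for ABCA, 70.8 for ABCC, 68.1 for ABCD and 42.7 for ABCG. On the same measure TuABCF-01 was at 97.3, TuABCF-02 at 90.2, TuABCE-01 at 79.7 and TuABCF-03 at 78.6.

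Between strains, the log2 signals of a gene lay close together. TuABCF-01 averaged 13.33 ± 0.06 in SR-TK (SD, n = 2), 13.07 ± 0.13 in SR-VP (SD, n = 3) and 13.16 ± 0.08 in LS-VL (SD, n = 5 channels). TuABCF-02 averaged 11.05 ± 0.19 in SR-TK, 11.30 ± 0.03 in SR-VP and 11.17 ± 0.17 in LS-VL. The order of the means thus ran SR-TK, LS-VL, SR-VP for TuABCF-01 and SR-VP, LS-VL, SR-TK for TuABCF-02. LS-VL overlapped SR-VP in both, while for TuABCF-01 both SR-TK values, 13.37 and 13.28, lay above the highest of LS-VL, 13.22. How many of all genes showed the same was not counted. The log2 ratios of TuABCF-01 on the SR-TK arrays were 0.15 and 0.07, and it did not pass the test there (limma, adjusted p = 0.429). TuABCF-03 averaged 9.67 ± 0.06 in SR-TK, 9.95 ± 0.19 in SR-VP and 9.89 ± 0.37 in LS-VL, and TuABCE-01 averaged 10.23 ± 0.41 in SR-TK, 9.81 ± 0.64 in SR-VP and 9.95 ± 0.56 in LS-VL. TuABCF-03 ran in the same order as TuABCF-02 and TuABCE-01 in that of TuABCF-01, and for TuABCE-01 the 3 strains overlapped throughout. The Cy5 signals of SR-TK and SR-VP did not overlap in 3 of the 4 genes, TuABCF-01, TuABCF-02 and TuABCF-03, where 32.4% of the 15861 genes tested showed the same. A signal differs between arrays also through the hybridisation, and LS-VL on the same array takes this up, so the strains were tested on the ratio.

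**Figure D1:**
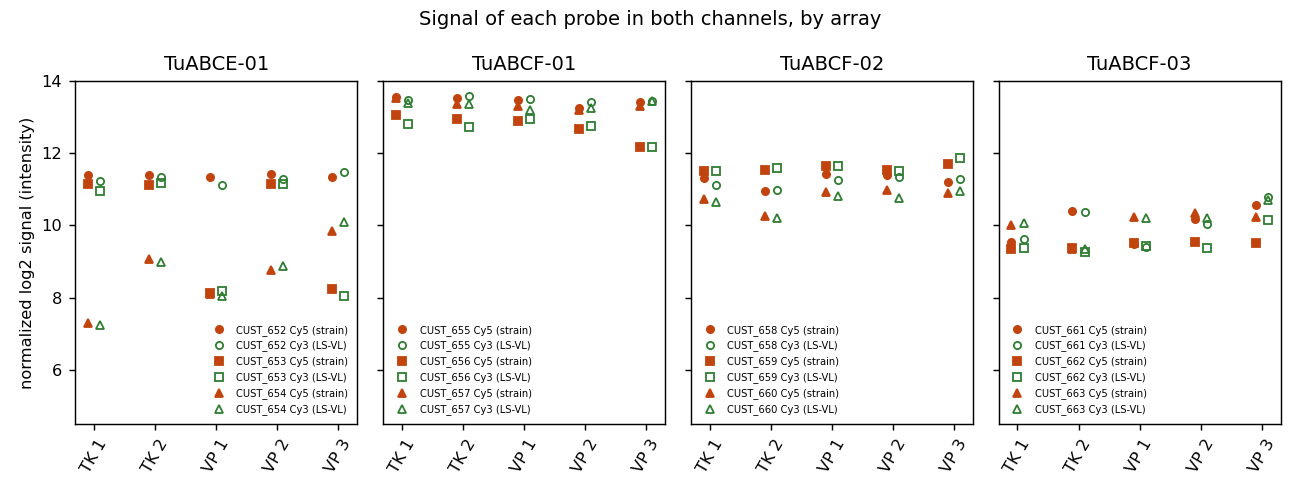
Normalized log2 signal (vertical axis, intensity) of each of the 3 probes of the 4 genes on the 5 arrays (horizontal axis; TK and VP stand for SR-TK and SR-VP, with the replicate number), in Cy5 (filled, resistant strain) and Cy3 (open, LS-VL). The probes of TuABCF-01 stay between 12.16 and 13.57 in both channels, while CUST_653 and CUST_654 of TuABCE-01 differ between arrays by several log2 units, in both channels alike.

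The first question was whether the genes differ between SR-TK and LS-VL. Their log2 ratios of SR-TK over LS-VL were near 0. TuABCE-01 stood at 0.13 and 0.02 on the SR-TK arrays, which gave a mean of 0.07 ± 0.08 (SE from limma, n = 2 arrays, adjusted p = 0.627), or 1.05-fold with a 95% interval of 0.918 to 1.21. TuABCF-01 stood at 0.15 and 0.07, with a mean of 0.11 ± 0.08 (adjusted p = 0.429), or 1.08-fold with an interval of 0.947 to 1.23. These 2 genes were above 0 on both arrays. TuABCF-02 stood at 0.09 and −0.01, with a mean of 0.04 ± 0.09 (adjusted p = 0.829) and an interval of 0.885-fold to 1.19-fold. TuABCF-03 stood at −0.07 and 0.05, with a mean of −0.01 ± 0.15 (adjusted p = 0.975) and an interval of 0.772-fold to 1.28-fold. Both had arrays on either side of 0.

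In SR-TK 0 of the 4 genes were called by limma at an adjusted p under 0.05 with a log2 ratio of at least 1 in size, a rule that 2.28% of all genes met, and 0 passed the adjusted p alone, which 8.34% of all genes did. No member had an unadjusted p under 0.05 either. Their median log2 ratio was 0.06, against 0.02 for all genes tested, and their median size regardless of sign was 0.06 against 0.14. An interval that reaches from below to above a ratio of 1 does not show that the levels are equal. It bounds them, and with loess normalization the widest of the 4 intervals in SR-TK ran from 0.772-fold to 1.28-fold.

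In SR-VP the 4 genes were again near the level of LS-VL. TuABCE-01 had log2 ratios of 0.07, 0.02 and −0.07 on the SR-VP arrays, with a mean of 0.01 ± 0.07 (SE from limma, n = 3 arrays, adjusted p = 0.966), or 1.00-fold with a 95% interval of 0.899 to 1.12. For TuABCF-01 they were 0.01, −0.10 and −0.06, with a mean of −0.05 ± 0.06 (adjusted p = 0.645) and an interval of 0.866-fold to 1.07-fold. TuABCF-02 had 0.09, 0.10 and −0.10, with a mean of 0.03 ± 0.07 (adjusted p = 0.835) and an interval of 0.904-fold to 1.15-fold. Each of these genes had arrays on both sides of 0. TuABCF-03 had 0.06, 0.15 and −0.43, with a mean of −0.07 ± 0.12 (adjusted p = 0.752) and an interval of 0.774-fold to 1.17-fold.

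None of the 4 genes, 0 of 4, was called in SR-VP by limma, against 1.95% of all genes, and 0 passed the adjusted p alone, against 11.3%. None had an unadjusted p under 0.05. The median log2 ratio of the members was −0.02, against 0.00 for all genes tested, and their median size was 0.04 against 0.12. Without SR-VP replicate 3 the members' median turned to 0.07. Of the 74 other ABC genes tested, 0 were called in either strain, while 2 passed the adjusted p alone upwards in SR-TK, and 4 upwards and 2 downwards in SR-VP. Their median size was 0.15 in SR-TK and 0.14 in SR-VP, and 41 of the 74 were ABCC genes, with 0.23 and 0.26. In the same order it was 0.12 and 0.05 for ABCA, 0.11 and 0.11 for ABCB, 0.03 and 0.10 for ABCD, and 0.14 and 0.09 for ABCG. The members' own median size was 0.06 in SR-TK, where only ABCD, with 2 genes, was smaller. In SR-VP it was 0.04, and no other subfamily was as small, with ABCA next at 0.05. The highest of the 74 genes in SR-TK was TuABCC-08 (0.88) and the lowest TuABCC-34 (−0.64), and in SR-VP these were TuABCC-01 (0.69) and again TuABCC-34 (−0.81), of which TuABCC-34 did not pass the test in either strain. Of the 35 genes tested under names starting with pABC, 0 were called in either strain. By the adjusted p alone 2 passed upwards and 1 downwards in SR-TK, and 2 upwards and 2 downwards in SR-VP. Their median sizes over all 35 were 0.20 in SR-TK and 0.14 in SR-VP.

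The median log2 ratio of the 4 genes on an array was 0.11 and 0.03 on the SR-TK arrays and 0.06, 0.06 and −0.09 on the SR-VP arrays. SR-VP replicate 3 was the lowest of the 5 arrays for TuABCE-01, TuABCF-02 and TuABCF-03, though not for TuABCF-01.

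**Figure D2:**
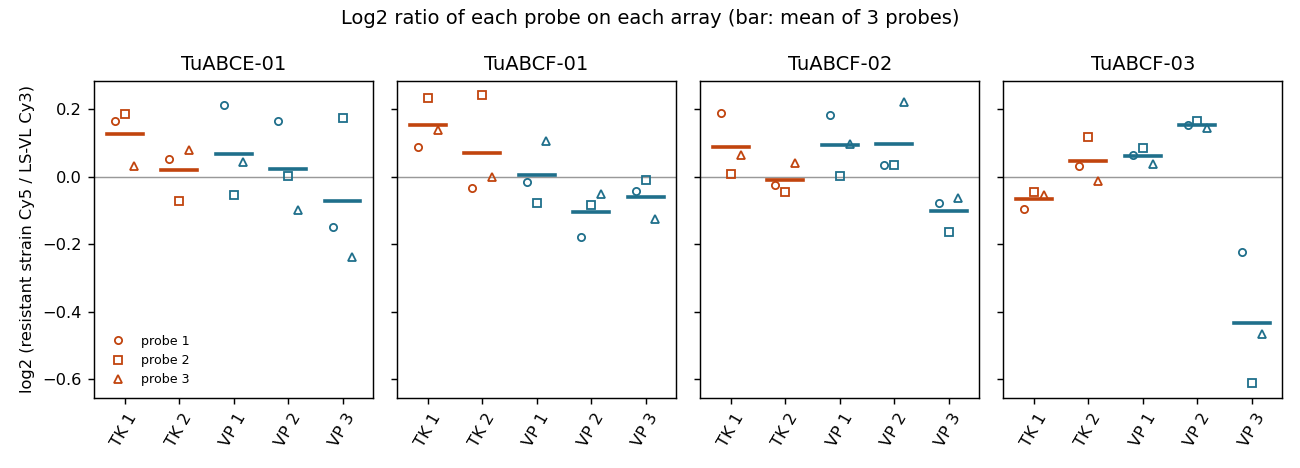
Log2 ratio of resistant strain (Cy5) over LS-VL (Cy3) on the vertical axis for each probe (symbols) and for the mean of the 3 probes (bars), by array (TK and VP stand for SR-TK and SR-VP). Gene means lie between −0.10 and 0.15 except for TuABCF-03 on SR-VP replicate 3, at −0.43.

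The strains were then set against each other, which removes a dye effect common to all arrays. For TuABCF-01, the difference SR-TK minus SR-VP was 0.16 ± 0.10 on the log2 scale (SE from limma, adjusted p = 0.713), with mean ratios of 0.11 in SR-TK and −0.05 in SR-VP. With the median of the probes in place of their mean, TuABCF-01 differed by 0.12 (limma, adjusted p = 0.844). Its ratios on the SR-TK arrays, 0.15 and 0.07, were above all those on the SR-VP arrays, the highest of which was 0.01. It was the 1 gene of 4 whose ratios did not overlap between strains, where 27.2% of all genes showed the same. The difference was 0.07 ± 0.10 for TuABCE-01 (adjusted p = 0.916), 0.01 ± 0.11 for TuABCF-02 (adjusted p = 0.993) and 0.06 ± 0.19 for TuABCF-03 (adjusted p = 0.964). Without SR-VP replicate 3 these turned to −0.06 for TuABCF-02 and −0.12 for TuABCF-03 (limma, adjusted p = 0.849 and 0.675), while TuABCF-01 stood at 0.16 and TuABCE-01 at 0.03. By limma 0 of the 4 genes were called, against 0.214% of all genes, 0 passed the adjusted p alone, against 0.252%, and none had an unadjusted p under 0.05. The 95% interval reached from 0.946-fold to 1.33-fold for TuABCF-01 and was widest for TuABCF-03, from 0.754-fold to 1.45-fold. Both comparisons with LS-VL share that strain as control, so their values are given side by side only.

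**Figure D3:**
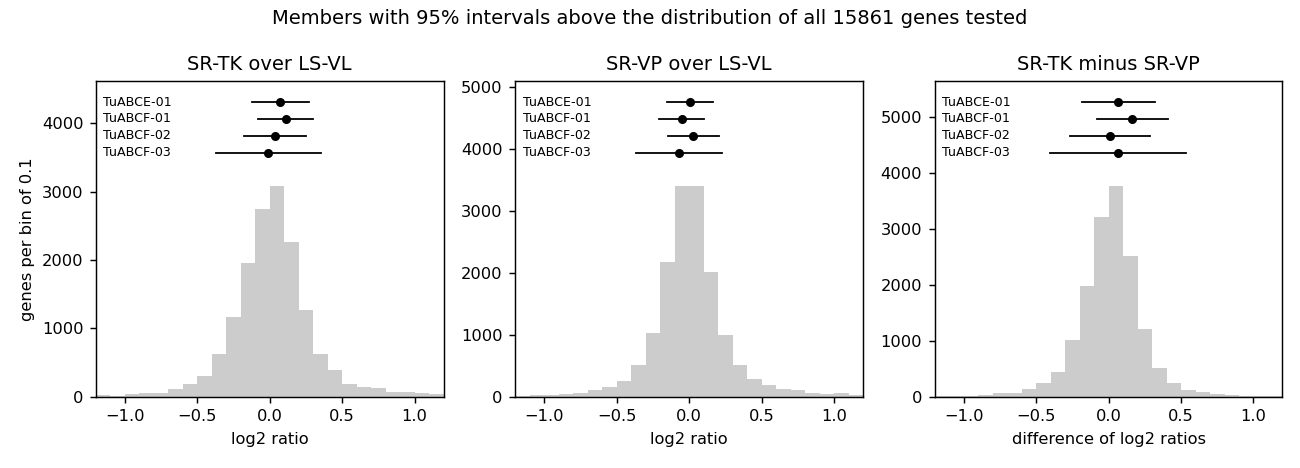
Log2 ratios over LS-VL of SR-TK (left) and SR-VP (middle) and their difference (right) for the 4 genes (dots) with 95% intervals from limma (lines), above the number of all 15861 genes tested per bin of 0.1 (grey bars; genes beyond 1.2 on either side are not shown). The intervals of all 4 genes include 0 in each panel.

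The ratios rest on loess normalization, which removes the trend of the ratio with brightness on each array, and which members passed the adjusted p in SR-TK depends on it. As an alternative, each array was centred on the median of its log2 ratios. That median was taken over all spots other than controls, including dim ones that the tests left out. The genes tested had a median of 0.22 in SR-TK and of 0.12 in SR-VP in this setting. In SR-TK, TuABCF-01 then stood at 0.77 (limma, adjusted p = 0.00684), TuABCF-02 at 0.59 (adjusted p = 0.0229), TuABCE-01 at 0.49 (adjusted p = 0.0227) and TuABCF-03 at 0.43 (adjusted p = 0.106), so that 3 of the 4 passed the adjusted p and 0 the fold. In SR-VP they stood at 0.29, 0.32, 0.23 and 0.18, and none passed (adjusted p from 0.101 to 0.409). The difference SR-TK minus SR-VP became 0.47 for TuABCF-01, 0.26 for TuABCF-02, 0.26 for TuABCE-01 and 0.25 for TuABCF-03, and none passed (limma, adjusted p from 0.406 to 0.731). Genes of like brightness stood as high in this setting. The 792 genes within 2.5 percentiles of TuABCF-01 had a median of 0.64 in SR-TK, with 74.5% of them past the adjusted p, and TuABCF-01 exceeded that median by 0.13. TuABCF-02 and TuABCE-01 exceeded theirs by 0.03 each, and TuABCF-03 stood at −0.03 from its own. Among the genes around TuABCF-02, TuABCE-01 and TuABCF-03, 65.8%, 54.9% and 53.7% passed the adjusted p in SR-TK. Of the 15861 genes tested, 8189 had an unadjusted p under 0.05 by limma in SR-TK with median centring. In SR-VP the distance from the median of like genes was −0.05 for TuABCF-01, 0.04 for TuABCF-02, −0.02 for TuABCE-01 and −0.07 for TuABCF-03. Relative to genes of their brightness, the members were placed much as by loess. Loess removes that same trend with brightness, so this likeness follows from the method and is no separate support for it. A shift of bright genes as a class cannot be told apart from a dye effect without a dye swap.

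**Figure D4:**
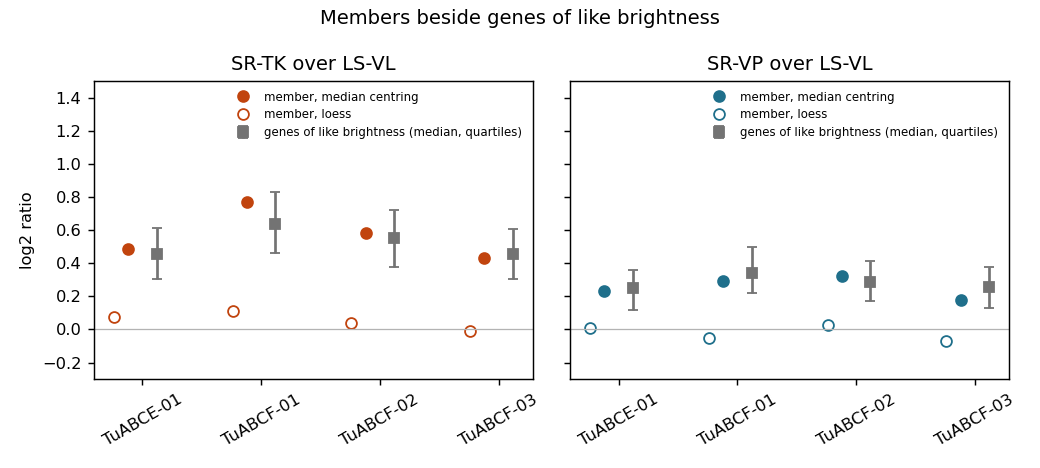
Log2 ratio over LS-VL (vertical axis) of the 4 genes in SR-TK (left) and SR-VP (right) with loess (open circles) and with median centring (filled circles), beside the median and quartiles of 791 or 792 genes within 2.5 percentiles of their brightness under median centring (grey squares and bars). In every case the filled circle lies within the quartiles of genes of like brightness.

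The genes differed in how well their arrays and probes agreed. The SD of the log2 ratio between arrays of a strain was 0.06 for TuABCF-01, 0.07 for TuABCE-01 and 0.10 for TuABCF-02, against a median of 0.14 over all genes. For TuABCF-03 it was 0.26, larger than in 82.6% of genes. Between the 3 probes of a gene, each averaged over the arrays, the SD was 0.05 for TuABCF-01, 0.06 for TuABCE-01, 0.06 for TuABCF-02 and 0.03 for TuABCF-03, against a median of 0.08 over 13430 genes with 3 probes tested. Averaged over all 5 arrays, the probes of TuABCF-03 thus lay closest together of the 4 genes, which did not hold within each strain. Its probe means were −0.03, 0.04 and −0.03 in SR-TK and 0.00, −0.12 and −0.09 in SR-VP, where those of TuABCF-01 were −0.08, −0.06 and −0.02.

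The spread of TuABCF-03 between arrays came from SR-VP replicate 3. There its 3 probes CUST_661, CUST_662 and CUST_663 had log2 ratios of −0.22, −0.61 and −0.47, while on the other 4 arrays all 12 probe values lay between −0.10 and 0.17. The gene's mean of −0.43 on that array lay above only 7.53% of genes there. The signal was higher on this array on the LS-VL side above all. The log2 signal of LS-VL was 10.54 on this array against 9.66 to 9.86 on the others, while that of SR-VP was 10.11 on it against 9.74 and 10.01 on the other SR-VP arrays. For CUST_662, LS-VL stood at 10.14 against 9.27 to 9.42, and SR-VP at 9.52 against 9.51 and 9.53. This array is also the one with the fewest spots well above background, and the part of that in the result was not tested. Without SR-VP replicate 3, the mean of TuABCF-03 in SR-VP was 0.11 on the log2 scale (limma, adjusted p = 0.366).

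TuABCE-01 showed the opposite pattern, with steady ratios from unsteady signals. Its probe CUST_652 had normalized signals of 2672 and 2694 in SR-TK and 2588, 2772 and 2588 in SR-VP, against 2232 to 2873 in LS-VL. Its probe CUST_653 had 2258 and 2217 in SR-TK and 277, 2268 and 300 in SR-VP, against 1986 and 2330 in LS-VL on the SR-TK arrays and 288, 2263 and 265 on the SR-VP arrays. On SR-VP replicates 1 and 3, CUST_653 was thus about as dim in LS-VL as in SR-VP, and its highest signal was 8.18 times its lowest in Cy5 and 8.78 times in Cy3. The SD of its log2 signal in Cy3 was larger than that of 99.2% of probes, and the SD of its log2 ratio larger than that of only 23.7%. CUST_654 behaved in the same way, with 156 and 533 in SR-TK and 272, 436 and 920 in SR-VP, against 152 and 504 in LS-VL on the SR-TK arrays and 264, 467 and 1084 on the SR-VP arrays.

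Both of these probes are spotted at the margin of the grid of 384 rows and 164 columns, CUST_653 in column 3 and CUST_654 in row 2, whereas CUST_652 lies 17 spots from the nearest edge and the probes of the ABCF genes between 13 and 69. The spots around CUST_654, taken as those within 3 rows and columns, moved with it. Their median signal deviated from its mean over arrays by −1.19 and 0.96 log2 units on the SR-TK arrays and by −0.72, 0.19 and 0.88 on the SR-VP arrays, where CUST_654 deviated by −1.36 and 0.39, and by −0.56, 0.19 and 1.34. Around CUST_653 this held less well. On SR-VP replicate 1 the surrounding spots stood at a median of −0.66 beside −1.78 for the probe, but on SR-VP replicate 3 they deviated by 0.13 while the probe stood at −1.79. With spots within 3 rows or columns of the edge left out, an alternative added after the data were seen, TuABCE-01 rests on CUST_652 alone. Its log2 ratio was then 0.11 in SR-TK and 0.08 in SR-VP, with neither past the test, and its percentile averaged over the arrays was 90.8 in Cy5 and 90.4 in Cy3. The lower and less steady rank of TuABCE-01 given above, and its place below TuABCF-02, thus rest on CUST_653 and CUST_654.

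**Figure D5:**
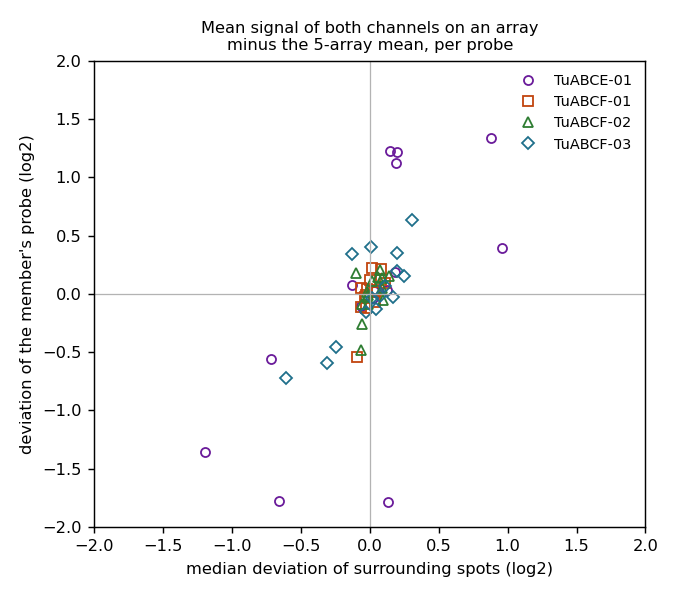
Deviation of each probe's mean log2 signal (both channels) on an array from its own mean over the 5 arrays (vertical axis), against the median deviation of spots within 3 rows and columns (horizontal axis), for the 12 probes of the 4 genes. Points of TuABCE-01 reach from −1.79 to 1.34, those of TuABCF-03 from −0.72 to 0.63, and those of TuABCF-01 and TuABCF-02 stay between −0.54 and 0.22.

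The other probes gave steadier signals than CUST_653 and CUST_654. CUST_655 and CUST_657 of TuABCF-01 varied between arrays by no more than 1.26-fold in either channel, and CUST_656 by 1.85-fold in Cy5 and 1.73-fold in Cy3. CUST_656 also gave the highest mean log2 ratio of the gene in SR-TK, 0.24, against 0.03 for CUST_655 and 0.07 for CUST_657. Tested alone among all probes, CUST_656 did not pass in SR-TK (limma, adjusted p = 0.183). The probes of TuABCF-02 varied by 1.14-fold to 1.67-fold between arrays, and those of TuABCF-03 by 1.15-fold to 2.58-fold. For CUST_661, CUST_662 and CUST_663 of TuABCF-03 the SD of the log2 signal in Cy3 was larger than that of 90.5%, 82.0% and 88.6% of probes. In Cy5 it was larger than that of 85.8%, 6.48% and 79.9%. In SR-VP the mean log2 ratios of single probes lay between −0.12 (CUST_662) and 0.08 (CUST_660).

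The log2 ratios of each gene over the 5 arrays were compared with those of 352 other genes with a symbol, and the 3 with the smallest root mean square difference are named. For TuABCE-01 these were TuABCF-02 (0.04 log2 units), GABA2 (0.04) and TuABCG-07 (0.05). TuABCF-01 was nearest to TuABCB-02 (0.07), TuABCE-01 (0.07) and the glutathione S-transferase TuGSTm01 (0.07). For TuABCF-02 the nearest were pABC-12 (0.04), pABC-21 (0.04) and TuABCE-01 (0.04). TuABCE-01 and TuABCF-02 are thus among the nearest genes of each other. Between genes with ratios near 0 on every array, a small distance says little more than that, and GABA2, pABC-12 and pABC-21 lay about as near. TuABCF-03 had the largest distances, to CCEinc-21 (0.10), TuABCA-01 (0.11) and TuABCD-02 (0.12).

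The array also holds plain names with the same numbers as the members. The plain Tetur30g01590 lay at a brightness percentile of 30.9, against 79.7 for TuABCE-01, and had a log2 ratio of 0.11 ± 0.08 in SR-TK and 0.24 ± 0.07 in SR-VP (SE from limma, adjusted p = 0.467 and 0.0733). The plain Tetur20g03040 lay at 89.8, against 97.3 for TuABCF-01, with −0.07 ± 0.17 in SR-TK and 0.05 ± 0.13 in SR-VP. The plain Tetur29g00800 and Tetur32g00510 lay at 14.2 and 11.2, against 90.2 for TuABCF-02 and 78.6 for TuABCF-03, and were too dim to be tested. Probes of the same gene also differ in brightness, and no sequences were analysed, so whether equal numbers mean the same gene is not known. The plain names were kept apart from the members.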

How the data were processed

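Total RNA of female deutonymphs was hybridised to 5 Agilent arrays with 2 colours, all on 1 slide per the file headers. The authors deposited each spot's median intensity and local background intensity per channel, and processed intensities that the scanner software (Agilent Feature Extraction 10.5 in the submitters' processing notes) had background-subtracted and dye-normalized, per the file headers. A log10 ratio of both processed channels was also deposited and entered no test. The authors also deposited signed fold changes (given the unit score here) per strain, with no account of how these were computed.

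Signals were corrected by normexp (offset 50), loess-normalized within arrays and Aquantile-normalized between arrays in limma 3.58.1 (R 4.3.3). Outlier spots were left out (874 values). A probe entered the tests if 2 or more arrays of 1 strain had it well above background in the same channel, and probes of a gene were averaged, giving 44268 probes and 15861 genes. The model in limma held a mean for each strain over the 5 arrays, with 3 residual and 3.07 prior degrees of freedom. Its spread is shared, and 2 of the 3 residual degrees of freedom come from SR-VP. p-values were adjusted by Benjamini-Hochberg over all genes. A gene was called at an adjusted p under 0.05 and a log2 ratio of at least 1 in size. The fit was tested on simulated data. Levels and percentiles used all probes, with no filter on dim ones. The small number of arrays limits the precision.

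All members were named, with the 3 nearest genes of each and the extremes of the other ABC lists. Members and lists were chosen with earlier results of these data known. Alternatives changed the background correction, the normalization, the filter, the probe summary, the arrays and the block. The numbers of the replicates were checked for pairing.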

Additional observations from a re-analysis of the deposited data

Results flagged for a closer look

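In 2 of 16 sets of 5 LS-VL log2 signals (the 4 genes and their 12 probes, which are not independent of each other), 1 array lay far from the rest. The gap to the nearest other value, as a share of the whole range, was above the limit of 0.71, which chance exceeds in about 1 in 20 sets. TuABCF-03 stood at 10.54 in LS-VL on SR-VP replicate 3, with a gap of 0.775 of the range. Its probe CUST_662 stood at 10.14 on the same array, with a gap of 0.822 of the range. No member differed between SR-TK and SR-VP by the test of the difference.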

How the results depend on the processing

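The log2 ratios of the 4 genes were taken under 19 other settings, which gave 212 values. Not all of these could differ from the main fit. The setting by the adjusted p alone repeats that fit, and leaving out arrays of either strain keeps the mean ratio of the other. With median centring within arrays, 3 of them passed the adjusted p, all in SR-TK (0.49 for TuABCE-01, 0.77 for TuABCF-01 and 0.59 for TuABCF-02). Of the genes of like brightness to a member, 53.7% to 74.5% passed there too. In the 18 other settings 0 of 200 values passed (limma, smallest adjusted p = 0.183), and the largest in size was 0.29. Both values come from the setting with each probe alone, where a gene is given by its probe with the smallest p. The count of members called, with the fold, was 0 in every setting run. Normalization between arrays changed signals but no ratio. With the brightest probe of a gene in place of the mean, the average Cy5 percentile was 85.2 for TuABCE-01 and 96.0 for TuABCF-01. It was 86.8 for TuABCF-02 and 74.3 for TuABCF-03.

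Counts over all genes moved more. In SR-TK the 362 calls became 565 with an offset of 10, 806 with the authors' processed signals, 753 with median centring (82.6% higher against 60.8%), 70 with only the arrays of SR-TK (41.4% higher) and 1323 by the adjusted p alone. In SR-VP the 310 became 483 with an offset of 10, 655 with processed signals and 1792 by the adjusted p alone, and with median centring 70.7% of 430 were higher, against 57.4%. In SR-TK minus SR-VP the 34 became 53 with an offset of 10, 19 with processed signals (21.1% higher against 52.9%), 77 with median centring and 11 with only probes above background everywhere. With each probe tested alone the unit changes, and of 44268 probes 1230 were called in SR-TK, 1076 in SR-VP and 168 in the difference, beside the counts out of 15861 genes. Leaving out 1 array at a time gave 13 calls in SR-TK minus SR-VP without SR-TK replicate 1, 7 without SR-TK replicate 2, 1 without SR-VP replicate 1, 6 without SR-VP replicate 2 and 0 without SR-VP replicate 3 (limma, with 1899 unadjusted p-values under 0.05). It gave 328 to 408 calls in SR-TK and 255 to 315 in SR-VP.

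With a replicate block, 2 genes differed between the strains, 265 were called in SR-TK and 295 in SR-VP, and no member was called. TuABCF-03 then stood at −0.19 in SR-TK (adjusted p = 0.206), and SR-TK minus SR-VP turned to −0.06 for TuABCF-02 and −0.12 for TuABCF-03. Deviations of arrays with the same number correlated across genes by 0.37 and 0.16, but SR-TK replicate 2 correlated with SR-VP replicate 3 by 0.16 too. The deviations of 2 SR-TK arrays mirror each other, and no label ties the numbers to a shared batch, so the samples were taken to share only a number.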

Other observations

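The SD of the log2 signal between arrays was 1.62 in Cy5 and 1.64 in Cy3 for CUST_653 of TuABCE-01, and 0.97 in Cy5 and 1.06 in Cy3 for CUST_654. Over 2078 kept probes within 3 spots of the grid's edge, this SD had a median of 0.62 in Cy5 and 0.58 in Cy3, against 0.23 in Cy5 and 0.17 in Cy3 for 42122 probes farther in. Both probes thus varied more than the typical probe at the edge, and the part of their position in this was not tested. For the log2 ratio the medians were 0.21 at the edge and 0.18 farther in.

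None of the members' numbers is listed in the authors' deposited table for SR-TK (0 of 451 genes) or in the authors' deposited table for SR-VP (0 of 546 genes), which hold genes with a fold of at least 2. The numbering there need not be that of the names with symbols.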
